A study of Homo sapiens with 9 samples.

Results

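The 10 genes described here are the core members of the BCL2 family measured in hTERT-RPE1 cells: the BH3-only genes BBC3, BMF, BCL2L11, PMAIP1 and BID, the effectors BAX and BAK1, and the pro-survival genes BCL2, BCL2L1 and MCL1. They were selected by symbol, all 10 were found among the 26475 symbols of the count table, and all 10 passed the filter on low counts that left 13784 genes to test. The selection was made on measured values, since BBC3 and BMF were picked for being higher after PIP4K2B knockdown. The knockdown comparison is therefore a description of these genes without a test, and the Soft comparison is tested. Both comparisons share the Control libraries, so the Soft test is not wholly free of that selection.

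hTERT-RPE1 is a cell line from retinal pigment epithelium kept dividing by telomerase, and all 9 libraries are bulk mRNA sequencing of it after 24 h on its substrate. The Control group holds 3 libraries of cells transduced with the pLKO control vector and grown on fibronectin-coated glass. The sh_PIP4K2B group holds 3 libraries of cells on the same coated glass, 1 for each of 3 hairpins against PIP4K2B, a kinase of phosphatidylinositol 5-phosphate, so that a hairpin and a replicate cannot be told apart in it. The Soft group holds 3 libraries of control-vector cells on a fibronectin-coated gel of 2.3 kPa. The sample titles and the study's methods give that vector as empty pLKO, although the treatment label calls it a control shRNA. No label says that libraries of a group came from separate cultures, so p-values measure the spread between these libraries only, which may be technical.

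The BCL2 family decides whether the outer mitochondrial membrane is opened during apoptosis. Pro-survival members such as BCL-XL, the product of BCL2L1, and MCL1 hold the effectors BAX and BAK in check, and BH3-only proteins bind the pro-survival members or the effectors and release that hold. BH3-only proteins act as sensors of particular stresses: BBC3 encodes PUMA, PMAIP1 encodes NOXA, BCL2L11 encodes BIM, a known target of FOXO factors, and BMF encodes a protein that binds the dynein light chain of the myosin V motor and is known for its part in the death of epithelial cells that lose their hold on the matrix.

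Totals per library ran from 19217346 to 24020799 estimated counts. Levels are given as CPM, counts relative to library size, scaled by TMM, edgeR's correction for composition. PIP4K2B was at 123, 124 and 119 CPM in Control and at 48.4, 40.9 and 36.6 CPM with hairpins #1, #2 and #3, and it fell by 1.54 on the log2 scale (SE 0.12, adjusted p = 3.8e-04 in edgeR's quasi-likelihood test). In Soft it was at 119, 122 and 127 CPM, within 0.00 of Control on the log2 scale. Of 10 markers of retinal pigment epithelium only MITF and OTX2 exceeded 1 CPM on average, and RPE65, TYR and TTR were at or near 0. RLBP1 was at 0.31 to 0.52 CPM in Soft and at 0 elsewhere. BEST1, at 0.67 to 0.77 CPM in Soft, was 4.70-fold above Control there (adjusted p = 0.0076, edgeR). PMEL, LRAT and SERPINF1 overlapped Control in Soft. OTX2 was 1.57-fold higher in sh_PIP4K2B (adjusted p = 0.0091) and 3.41-fold higher in Soft (adjusted p = 1.4e-05), and MITF was at -0.25 and -0.49 on the log2 scale (adjusted p = 0.29 and 0.026, edgeR). The 4 mesenchymal markers summed to 14467 to 47004 CPM. COL1A1 was 1.97-fold higher in Soft (adjusted p = 0.0091, edgeR) and 2.05-fold higher in sh_PIP4K2B, short of the threshold (adjusted p = 0.020, edgeR). VIM was lower in every hairpin and Soft library without passing the test, and CDH2 did not pass in either comparison. FN1, at 26884 to 28256 CPM in Control, measured 9887, 38290 and 21904 CPM for hairpins #1 to #3. The epithelial keratins KRT8 and KRT18 were present, and the 4 simple-epithelium markers summed to 1980 CPM in Control, 977 in sh_PIP4K2B and 910 in Soft on average. Of 4 markers of other cell types, the leukocyte gene PTPRC was at most 0.52 CPM and ALB at most 0.099 CPM in every library, PECAM1 was at 4.33 to 5.33 CPM in Soft and at most 0.35 elsewhere, and CD68, a lysosomal glycoprotein, was at 143 to 148 CPM in Soft and 42.5 to 80.1 elsewhere. The sum of the 4 ranged from 43.0 to 152 CPM over the libraries. The part of these shifts in the results was not tested, and in bulk RNA fewer cells of a type and less RNA per cell cannot be told apart.

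The 3 BH3-only genes that were higher in both conditions are BBC3, BMF and BCL2L11. The sequence just before a RefSeq start of each is shown as a description, and binding of any factor was not measured. BMF is on the minus strand of chromosome 15 (40087890 to 40108892, GENCODE v44, GRCh38), BCL2L11 on the plus strand of chromosome 2 (111119378 to 111168444) and BBC3 on the minus strand of chromosome 19 (47220822 to 47232766). The windows hold the 250 bases upstream of a RefSeq start (GRCh38.p14), written 5′ to 3′ on the gene's strand, at chr15:40108880-40109129 for BMF, chr2:111120664-111120913 for BCL2L11 and chr19:47232668-47232917 for BBC3. Capitals mark matches to a searched motif: the FOXO motif GTAAACA in BCL2L11, and the E-box CACGTG and the AP-1 motif TGANTCA, in that order, in BBC3.
BMF: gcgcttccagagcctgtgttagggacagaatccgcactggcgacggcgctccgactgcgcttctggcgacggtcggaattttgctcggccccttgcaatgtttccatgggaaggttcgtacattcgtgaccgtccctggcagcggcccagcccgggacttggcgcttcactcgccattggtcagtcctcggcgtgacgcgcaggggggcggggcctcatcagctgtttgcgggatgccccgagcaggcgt
BCL2L11: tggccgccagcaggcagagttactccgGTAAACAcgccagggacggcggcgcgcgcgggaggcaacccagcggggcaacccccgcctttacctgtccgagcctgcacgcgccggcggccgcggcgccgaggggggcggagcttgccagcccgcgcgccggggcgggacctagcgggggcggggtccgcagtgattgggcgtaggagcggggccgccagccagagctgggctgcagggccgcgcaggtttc
BBC3: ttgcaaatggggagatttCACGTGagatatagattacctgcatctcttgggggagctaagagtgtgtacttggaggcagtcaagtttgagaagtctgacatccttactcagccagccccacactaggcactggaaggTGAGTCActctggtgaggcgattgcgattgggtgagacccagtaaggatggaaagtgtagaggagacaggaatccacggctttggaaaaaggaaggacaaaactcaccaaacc

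The windows of BMF and BCL2L11 end at the start of the canonical GENCODE transcript, while the RefSeq start of BBC3 lies 1468 bases upstream of it. The BMF and BCL2L11 windows were 65.2% and 76.8% G or C with 26 and 34 CpG, against a median of 58% and 11 CpG over the 35116 windows of the table, and the BBC3 window was at 49.2% and 4 CpG. A second RefSeq start of BMF lies downstream of the first, and its window (chr15:40106967-40107216) was at 48.8% with 0 CpG. On either strand, GTAAACA was in 2.98% of the 35116 windows, CACGTG in 6.34%, TGANTCA in 6.57%, the TEAD motif GGAATG in 11.9% and the CRE TGACGTCA in 1.65%. The FOXO match in BCL2L11 lies 223 to 217 bases before the start. In BBC3 the E-box lies 232 to 227 bases and the AP-1 match 113 to 107 bases before the start. Of the 9 members with an entry in the RefSeq table, BAX held 4 separate CACGTG matches in its window and BID 1 upstream of some of its starts. A match describes the letters of a window and not a bound site, and no motif overlapped another in these windows.

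BMF had the lowest p of the 13784 genes tested in Soft against Control. It was at 5.03, 4.56 and 5.11 CPM in the Control libraries, at 26.6, 36.0 and 35.8 CPM with hairpins #1, #2 and #3, and at 226, 233 and 231 CPM in the Soft libraries. The 3 groups did not overlap, and Soft stood far above the hairpins. BMF rose 46.8-fold in Soft (log2 fold change 5.55, SE 0.15, adjusted p = 2.9e-07, edgeR), and 11 of the genes that passed the test had a higher log2 fold change. In the hairpin libraries it was 6.69-fold above Control (log2 2.74, SE 0.14), with hairpin #1 at 544% and hairpins #2 and #3 at 734% and 730% of the Control mean.

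BCL2L11, which encodes BIM, was at 3.49, 4.34 and 4.67 CPM in Control, at 11.1, 10.4 and 10.3 CPM with the hairpins and at 51.2, 46.1 and 46.7 CPM in Soft. The groups took the same order as for BMF, without overlap. It rose 11.5-fold in Soft (log2 3.52, SE 0.14, adjusted p = 1.1e-06, edgeR), the sixth lowest p, and was 2.54-fold above Control with the hairpins (log2 1.35, SE 0.13). The gene lies wholly inside MIR4435-2HG, a long noncoding gene on the opposite strand, and whether counting used strand is not stated. MIR4435-2HG was at 29.8, 30.9 and 31.1 CPM in Control, 16.4, 24.3 and 32.9 CPM with the hairpins and 17.9, 15.8 and 17.7 CPM in Soft. Every Soft library of MIR4435-2HG was below every Control library, the reverse of BCL2L11.

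BBC3, which encodes PUMA, had the opposite order of the 2 conditions. It was at 7.17, 6.54 and 7.25 CPM in Control, at 33.7, 34.1 and 35.1 CPM with hairpins #1 to #3 and at 13.5, 13.0 and 13.4 CPM in Soft. The SD of log2 CPM over the hairpins was 0.03. BBC3 was picked for its rise in these same libraries, so that closeness is a description and not support for a uniform response. BBC3 rose 1.91-fold in Soft (log2 0.93, SE 0.10, adjusted p = 1.3e-04, edgeR) and was 4.91-fold above Control with the hairpins (log2 2.30, SE 0.10). Directly between the conditions, as a description, Soft minus sh_PIP4K2B was -1.37 for BBC3 (SE 0.10), 2.81 for BMF (SE 0.13) and 2.17 for BCL2L11 (SE 0.13) on the log2 scale.

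**Figure D1:**
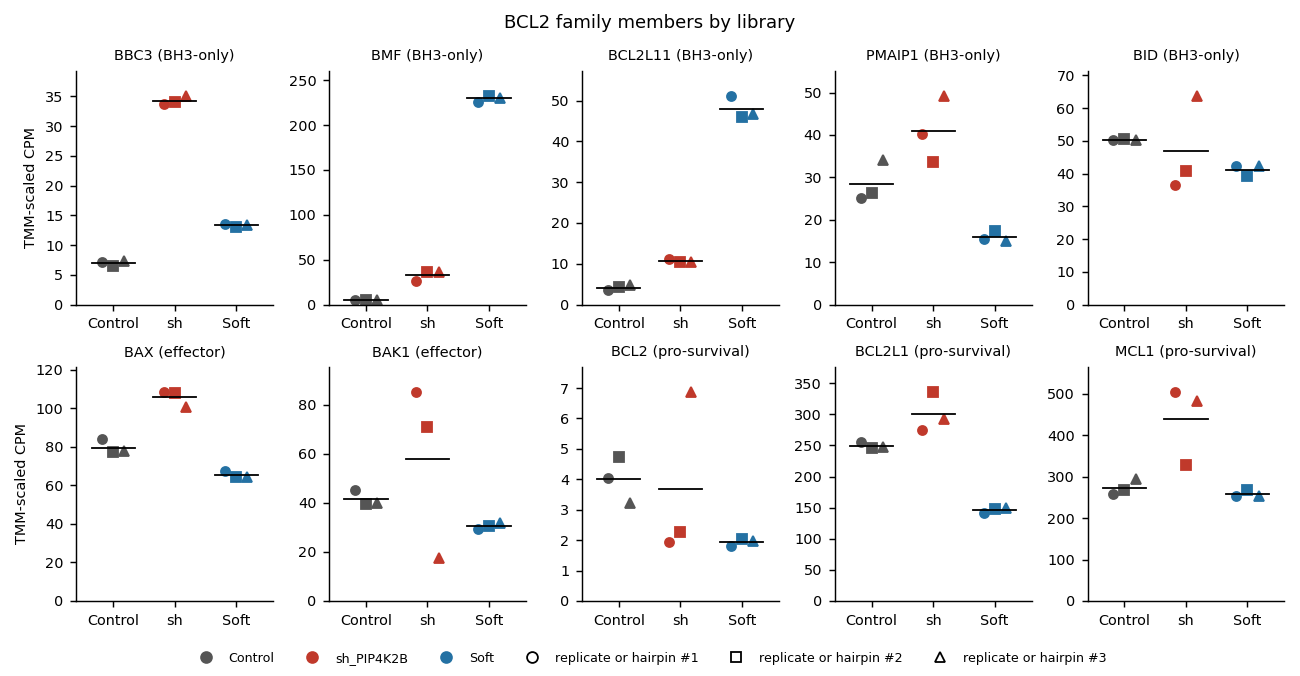
TMM-scaled CPM of each member (vertical axis, from 0) in the 9 libraries by group, with sh for sh_PIP4K2B, a bar at each group mean and the marker shape for the replicate or hairpin number. BMF and BCL2L11 step up from Control to sh_PIP4K2B to Soft, BBC3 is highest with the hairpins (33.7 to 35.1 CPM), and BAK1, BCL2 and BID have hairpin #3 apart from the other 2 hairpins.

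The remaining BH3-only members, PMAIP1 and BID, were not higher in both conditions. PMAIP1, which encodes NOXA, was at 25.0, 26.2 and 34.0 CPM in Control, 40.1, 33.7 and 49.3 CPM with hairpins #1, #2 and #3, and 15.5, 17.3 and 15.0 CPM in Soft. With the hairpins PMAIP1 was 0.53 above Control on the log2 scale (SE 0.17), although hairpin #2 lay just below the highest Control library. Every Soft library lay below every Control library. PMAIP1 fell by 0.83 on the log2 scale in Soft (1.78-fold lower, SE 0.17, adjusted p = 0.0035, edgeR). Leaving out Control replicate 3 gave an adjusted p of 0.017 and leaving out Soft replicate 1, 2 or 3 gave 0.018, 0.011 and 0.019, and scaling by library size only gave 0.014, each above the threshold of 0.01.

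BID, which is cut by caspase-8 to link death receptors to mitochondria, was at 50.4, 50.5 and 50.3 CPM in Control and at 42.3, 39.2 and 42.3 CPM in Soft. The 3 Control libraries lay within 1 CPM of one another and all Soft libraries were lower, with a log2 fold change of -0.29 (SE 0.18, adjusted p = 0.22, edgeR). With hairpins #1, #2 and #3 it was at 36.6, 40.7 and 63.8 CPM, so hairpin #3 was above and the other 2 below Control.

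The effectors are the proteins that form the pore. BAX was at 84.2, 77.1 and 77.6 CPM in Control, 108, 108 and 101 CPM with the hairpins and 67.5, 64.1 and 64.2 CPM in Soft. All hairpin libraries were above and all Soft libraries below Control. The log2 fold change in Soft was -0.29 (SE 0.09, 95% interval -0.49 to -0.08, adjusted p = 0.026, edgeR), short of the threshold of 0.01, and that with the hairpins was 0.41 (SE 0.09). BAK1 was at 45.1, 39.4 and 39.9 CPM in Control and 29.4, 30.5 and 31.6 CPM in Soft. With hairpins #1 and #2 it was at 85.1 and 70.7 CPM, 205% and 171% of the Control mean, while with hairpin #3 it was at 17.6 CPM, 42.4%. The hairpins therefore disagreed in direction, and the fitted values were 0.48 (SE 0.43) for sh_PIP4K2B and -0.44 (SE 0.43, adjusted p = 0.43, edgeR) for Soft. Of the 75-base words of the BAK1 transcript, 8.11% are also in the pseudogene BAK1P1, so reads there could have been split between them, and no other member shares such a word with another gene.

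Among the pro-survival genes, BCL2L1 was the one that passed the test in Soft. It was at 256, 246 and 248 CPM in Control, 275, 336 and 293 CPM with the hairpins and 142, 147 and 149 CPM in Soft. Every Soft library was below and every hairpin library above every Control library. BCL2L1 fell by 0.77 on the log2 scale in Soft (1.71-fold lower, SE 0.11, adjusted p = 3.9e-04, edgeR), and its value with the hairpins was 0.27 (SE 0.11). The antisense transcript ABALON overlaps BCL2L1 over 1903 bases and was at 13.2, 13.4 and 14.5 CPM in Control, 24.5, 21.5 and 16.6 CPM with the hairpins and 7.21, 8.36 and 7.63 CPM in Soft, in the same order of groups.

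MCL1, a short-lived pro-survival protein, was at 257, 267 and 294 CPM in Control and 254, 267 and 254 CPM in Soft, which overlapped. Its log2 fold change in Soft was -0.08 (SE 0.16, 95% interval -0.44 to 0.28, adjusted p = 0.70, edgeR), and it turned to 0.03 when libraries were scaled by size only. With hairpins #1, #2 and #3 it was at 504, 327 and 483 CPM, all above Control, at a log2 value of 0.68 (SE 0.16). BCL2 itself was the lowest member per length, at 4.05, 4.74 and 3.23 CPM in Control, 1.93, 2.26 and 6.87 CPM with the hairpins and 1.82, 2.05 and 1.97 CPM in Soft. Soft lay below Control in every library, whereas hairpin #3 was above Control and hairpins #1 and #2 below it. The log2 fold change of BCL2 in Soft was -1.04 (SE 0.44, adjusted p = 0.079, edgeR) on 40 to 44 counts per Soft library.

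BID, BAK1, BCL2 and BAX changed their call when hairpin #3 was left out. Without hairpin #3, their Soft values were -0.30, -0.46, -1.05 and -0.30 on the log2 scale with adjusted p of 0.0085, 0.0045, 0.0018 and 0.0058 in edgeR. The SD of log2 CPM over the hairpins was 1.24 for BAK1, 0.97 for BCL2 and 0.42 for BID, while for BAX it was 0.06, below its 0.07 in Control. BAX also passed without hairpin #1 (adjusted p = 0.0048, edgeR) and in DESeq2 on all 9 libraries (adjusted p = 0.0029).

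**Figure D2:**
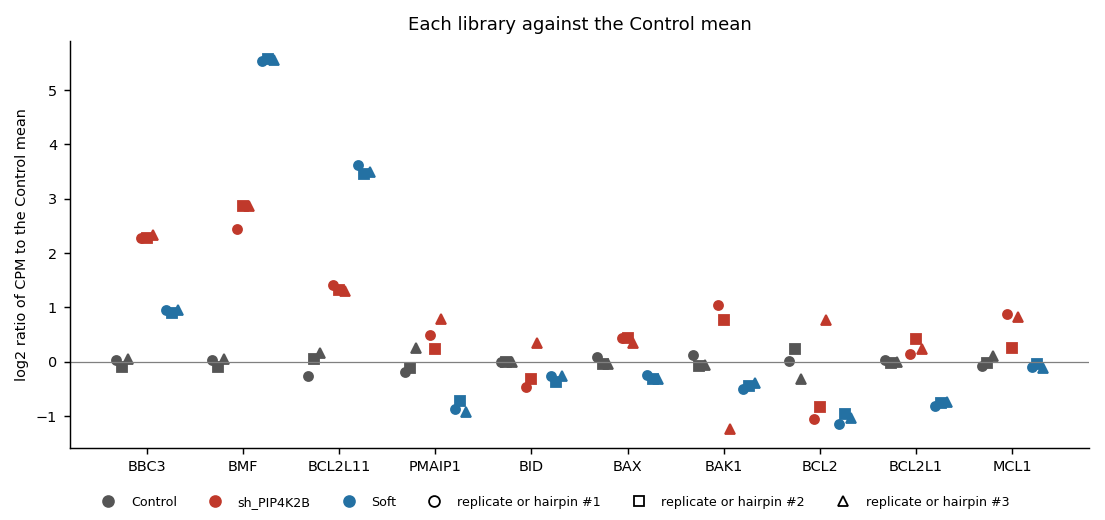
The log2 ratio of each library's CPM to the Control mean (vertical axis) for each member, with 0 at the Control mean, colour for the group and marker shape for the replicate or hairpin number. The Soft libraries of each gene lie close together, while hairpin #3 lies below 0 for BAK1 (42.4% of the Control mean) and above 0 for BCL2 (171%) and BID (127%), against the other 2 hairpins.

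Of the 10 members, 5 passed the test in Soft, where 30.6% of all genes tested did. BBC3, BMF and BCL2L11 were higher, where 15.8% of all genes were called higher, and PMAIP1 and BCL2L1 lower, where 14.8% were called lower. The median log2 fold change of the members was -0.29, against 0.01 over all genes. The libraries of Soft and Control did not overlap for 9 of the 10 members, 3 higher and 6 lower, and for 79.4% of all genes. In sh_PIP4K2B, the comparison that chose the members, 3 of 10 were past the threshold and all 3 were higher, where 5.54% of all genes were past it, 2.76% higher and 2.77% lower. The hairpin and Control libraries did not overlap for 6 of 10 members, all higher, and for 34.1% of all genes in either direction. These counts in sh_PIP4K2B were fixed in part by the choice of the members and nothing is read from them. Over all genes, 2181 were called higher and 2036 lower in Soft, and 2484 and 1468 with scaling by library size only. Both comparisons use the same 3 Control libraries, so their values are set side by side and not correlated.

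**Figure D3:**
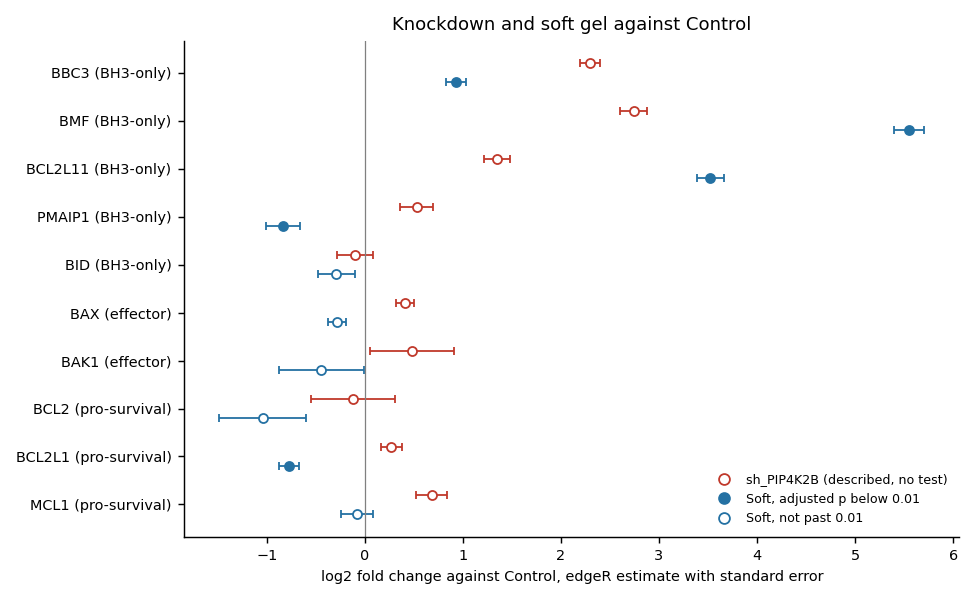
Log2 fold change against Control with its standard error (horizontal axis, edgeR) for each member in sh_PIP4K2B (red, open, described without a test) and in Soft (blue, filled where the adjusted p is below 0.01). BMF and BCL2L11 lie further right in Soft (5.55 and 3.52) than in sh_PIP4K2B, BBC3 lies further right in sh_PIP4K2B (2.30), and PMAIP1 and BCL2L1 are filled to the left of 0 in Soft.

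Levels of different genes were compared per length, as CPM per kb of the canonical transcript. In Control, BAX (100.2 ± 5.0 CPM per kb, SD, n = 3) and BCL2L1 (97.0 ± 2.0) came first with overlapping libraries, followed by MCL1 (69.1 ± 4.9), BID (23.2 ± 0.1), BAK1 (19.1 ± 1.4), PMAIP1 (15.0 ± 2.6), BBC3 (3.78 ± 0.21), BMF (1.04 ± 0.06), BCL2L11 (0.82 ± 0.12) and BCL2 (0.58 ± 0.11). Only the pairs BAX with BCL2L1 and BCL2L11 with BCL2 overlapped among neighbours in that order. In sh_PIP4K2B the order was BAX, BCL2L1, MCL1, BAK1, BID, PMAIP1, BBC3, BMF, BCL2L11 and BCL2. There the neighbours from BAX to MCL1 and from BAK1 to BBC3 overlapped, and BBC3, at 18.6 ± 0.4 CPM per kb, had reached the range of PMAIP1 (17.7 to 25.9). In Soft, BMF ranked 4 at 49.0 ± 0.7 CPM per kb, behind BAX (82.1 ± 2.4), MCL1 (65.3 ± 1.9) and BCL2L1 (56.7 ± 1.5), with no overlap between these neighbours.

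The shares of the 5 BH3-only members in their own summed mRNA differed accordingly. BH3-only genes outside the 10 members are left out. Among them BAD averaged 36.3 CPM in Control, 37.3 in sh_PIP4K2B and 50.8 in Soft. Its canonical transcript has 929 bases against 2177 for BID, so the shares below would change if it were counted. Of the summed level per length of the 5 BH3-only members, BID held 53.1% and PMAIP1 34.0% in Control on average, and BMF 2.39%. With the hairpins BBC3 held 26.6%, PMAIP1 30.4% and BID 30.1%. In Soft BMF held 52.7%, BID 20.4% and BCL2L11 10.1%. The sum itself was 42.0, 42.4 and 47.0 CPM per kb in Control, 64.1, 64.6 and 83.9 with hairpins #1 to #3 and 93.1, 92.8 and 92.9 in Soft. The sum of the 3 pro-survival members was 165, 164 and 171 CPM per kb in Control, 235, 214 and 237 with the hairpins and 120, 125 and 122 in Soft. It was thus higher than Control in every hairpin library and lower in every Soft library. The ratio of the BH3-only sum to the pro-survival sum was 0.25, 0.26 and 0.27 in Control, 0.27, 0.30 and 0.35 with hairpins #1, #2 and #3, and 0.78, 0.74 and 0.76 in Soft. These sums contain the genes chosen for their rise, they weigh mRNA and not protein, and they are given without a test. The ratio covers 8 members and leaves out BAD and the pro-survival gene BCL2L2. BCL2L2 averaged 55.9 CPM in Control, 32.0 in sh_PIP4K2B and 38.3 in Soft. A ratio with these genes was not computed, so no change of the whole family's balance is read from it.

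**Figure D4:**
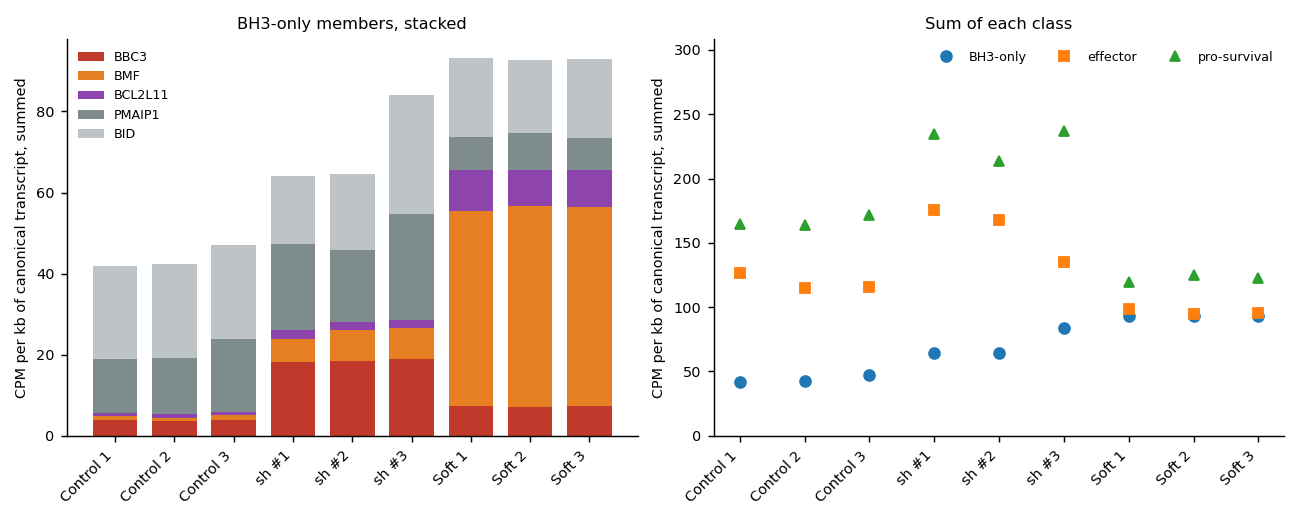
Left, CPM per kb of canonical transcript of the 5 BH3-only members stacked for each library (vertical axis from 0). The label sh # gives the hairpin number. Right, the summed level of the members of each class per library on the same unit. BMF (orange) fills 52.7% of the Soft stack on average, and the pro-survival sum is highest with the hairpins (214 to 237) and lowest in Soft (120 to 125).

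Other genes of the same pathway were read from a list of 48 genes, of which 42 were tested. BCL2A1, BCL2L10, BIK, HRK, BCL2L14 and BCL2L15 were filtered out, each below 1 CPM in every library. In Soft, 13 of 42 passed the test, 4 higher and 9 lower, which is close to the 30.6% of all genes. The list's median log2 fold change was -0.28, against 0.01 over all genes tested. Among those higher were the transcription factors FOXO1 (2.03, SE 0.34, adjusted p = 0.0012) and FOXO4 (1.94, SE 0.20, adjusted p = 8.4e-05), and the initiator caspase of the apoptosome CASP9 (0.89, SE 0.16, adjusted p = 0.0014), all in edgeR's test. Among those lower were the death receptor FAS (-1.83, SE 0.35, adjusted p = 0.0022), MYC (-1.55, SE 0.31, adjusted p = 0.0030), the caspase inhibitor BIRC2 (-1.47, SE 0.12, adjusted p = 2.5e-05) and cytochrome c, CYCS (-1.24, SE 0.14, adjusted p = 1.3e-04). E2F1, MYO5A, BNIP3L and DYNLL1 were also lower and lay between -1.02 and -0.42. MYO5A and DYNLL1 encode the myosin V heavy chain and a dynein light chain, motor parts known to tether BMF and BIM. DYNLL2, the other light chain listed, was at -0.64 (SE 0.30, adjusted p = 0.10, edgeR) and lower in every Soft library.

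FOXO1 was at 0.88, 1.05 and 1.40 CPM in Control, 2.30, 4.09 and 5.98 CPM with hairpins #1 to #3 and 4.79, 4.66 and 4.24 CPM in Soft. FOXO4 was at 3.86, 5.13 and 4.67 CPM in Control, 10.5, 7.17 and 6.87 CPM with the hairpins and 15.5, 18.8 and 18.1 CPM in Soft. FOXO1 and FOXO4 were above Control in every hairpin and Soft library, and FOXO4 did not pass the test in sh_PIP4K2B (log2 0.84, SE 0.20, adjusted p = 0.020, edgeR). FOXO3 was at 57.1 to 59.5 CPM in Control, 77.2, 56.9 and 106 CPM with hairpins #1, #2 and #3, and 68.2 to 71.5 CPM in Soft (log2 0.27, SE 0.19, adjusted p = 0.27, edgeR). For FOXO3, hairpin #2 lay below every Control library.

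In sh_PIP4K2B, 5 of the 42 listed genes passed the test, against 5.54% of all genes. The list's median was 0.16, against 0.05 over all genes tested. DDIT3, the stress factor CHOP that is known to act on BBC3 and BCL2L11, rose by 2.21 on the log2 scale (SE 0.37, adjusted p = 0.0048, edgeR), at 55.7, 19.5 and 56.4 CPM with hairpins #1, #2 and #3 against 8.84, 9.70 and 9.83 CPM in Control. FOXO1 rose by 1.88 (SE 0.34, adjusted p = 0.0074, edgeR), and FBXW7, part of a ubiquitin ligase that acts on MCL1, rose by 0.97 (SE 0.11, adjusted p = 0.0012, edgeR). E2F1 fell by 0.92 (SE 0.12, adjusted p = 0.0016, edgeR) and the pro-survival gene BCL2L2 fell by 0.80 (SE 0.15, adjusted p = 0.0094, edgeR). BCL2L2, at 54.6 to 57.1 CPM in Control, was at 41.1, 27.3 and 27.8 CPM with the hairpins and at 37.2, 38.9 and 38.7 CPM in Soft (log2 -0.55, SE 0.15, adjusted p = 0.017, edgeR). None of the 5 passed when only the Control and hairpin libraries were fitted, with adjusted p of 0.019 to 0.057 in edgeR, and 4 or fewer of the 42 did under another normalization or without a Control library.

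**Figure D5:**
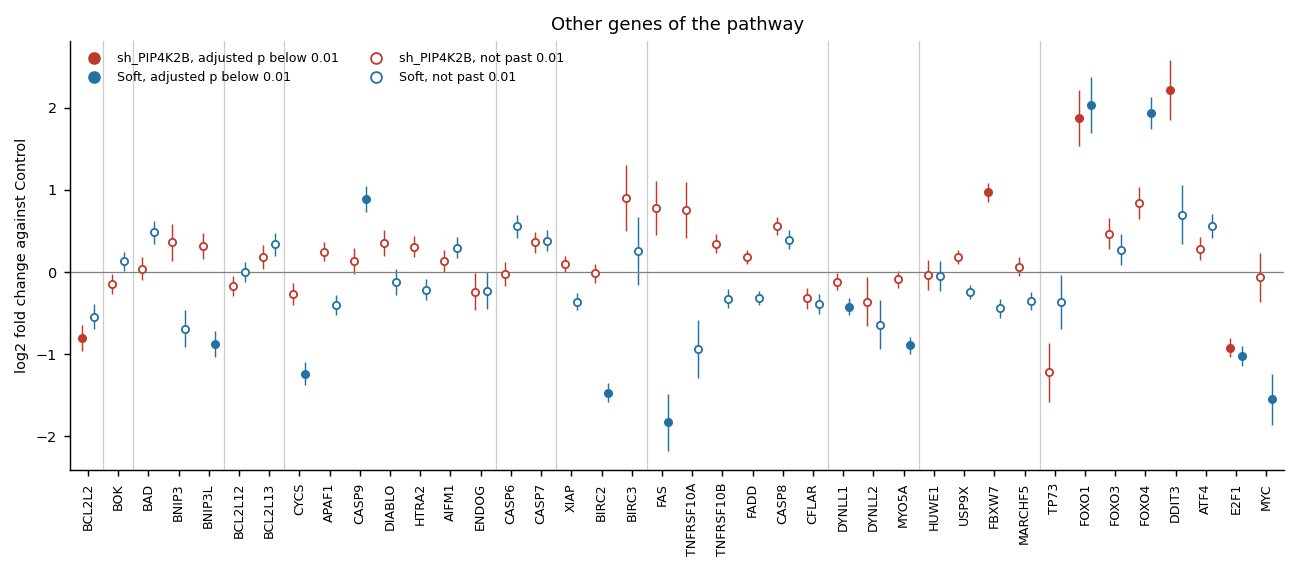
Log2 fold change against Control with its standard error (vertical axis, edgeR) for 40 of the 42 tested genes of the pathway list, in sh_PIP4K2B (red) and Soft (blue), filled where the adjusted p is below 0.01, with grey lines between functional groups. FOXO1 and E2F1 are filled in both comparisons, FAS in Soft is the lowest point (-1.83) and DDIT3 in sh_PIP4K2B the highest (2.21).

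The genes most alike to BBC3 over the 9 libraries, by Pearson's r of log2 CPM, were KMT2C (0.99), ZCCHC3 (0.98) and DCP1B (0.98). KMT2C averaged 25.9 CPM in Control, 45.3 in sh_PIP4K2B and 32.9 in Soft, the same order of groups as BBC3. Most alike to BMF were KSR1 (1.00), the ferritin heavy chain gene FTH1 (1.00) and PHF21A (0.99), and KSR1 averaged 11.4, 22.2 and 43.5 CPM in the same order of groups. With 3 groups of 3 libraries, such an r reflects mostly the group means, and it is given as a description.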

How the data were processed

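The deposited table holds estimated counts per gene symbol for 9 libraries of hTERT-RPE1 cells (12.3% of values not whole), made by the authors from stranded mRNA libraries aligned to GRCh38 (hg38). The submitters' processing notes name STAR and Salmon, and the gene annotation is not given in the sources used here. The deposited counts were rounded and fitted with edgeR 4.0.16 (R 4.3.3) in 1 quasi-likelihood model over the 9 libraries, with TMM scaling, filterByExpr, Benjamini-Hochberg adjustment over the 13784 genes tested and a threshold of 0.01. SE is the log2 fold change divided by the root of F, and 95% intervals use the t distribution of the fit. Libraries of a group differed by more than sampling noise. Chi-square per degree of freedom was 3.2 to 6.0 in Control, 3.3 to 5.8 in Soft and 104 to 170 between hairpins. Each library counted as 1 replicate, although such a spread does not show that libraries came from separate cultures. DESeq2 1.42.0 and the other settings were alternatives. In simulated data for Soft against Control over 13784 genes, edgeR recovered 41 of 100 genes changed 2-fold and 86 of 100 changed 4-fold, with 0 false calls. DESeq2 recovered 69 and 92 with 19 false calls. The simulation gave a gene the same spread in every group and changed only the planted genes, unlike the data, so these rates need not hold here.

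The members and the pathway list were chosen with earlier results of these data known. Named were all 10 members, PIP4K2B, each listed pathway gene past 0.01 in sh_PIP4K2B, the 5 highest and 5 lowest past 0.01 in Soft, and the 3 genes most alike to BBC3 and to BMF. MYO5A, BNIP3L, DYNLL1, DYNLL2 and FOXO3 were named after their values were seen. CPM per kb used the canonical GENCODE v44 transcript, and the transcripts the cells used may differ in length. Of the pathway list, 2 genes are counted but not reported here by name. MARCHF5 was read under the older symbol of the table. Genes that overlap a member on either strand were looked up in GENCODE v44, and 75-base words of each member's transcript were searched in all other transcripts. Upstream sequence came from a RefSeq table. Figures were drawn with matplotlib 3.10.9.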

Additional observations from a re-analysis of the deposited data

Results flagged for a closer look

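For 4 members every hairpin library lay above the Control mean and every Soft library below it. The share of all genes tested that do so was not computed, so nothing is read from this count. The difference between the conditions was not tested because the hairpin libraries chose the members. For PMAIP1, hairpin #2 (33.7 CPM) lay below the highest Control library (34.0 CPM). Soft minus sh_PIP4K2B was -1.36 for PMAIP1, -0.69 for BAX, -1.04 for BCL2L1 and -0.76 for MCL1 on the log2 scale. The hairpin libraries of BCL2L1 were 0.14 to 0.43 above and its Soft libraries -0.82 to -0.74 from the Control mean. For MCL1 the Soft libraries were only -0.11 to -0.03 from that mean, and they overlapped the Control libraries. Groups of 3 libraries were not screened for single outlying samples.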

How the results depend on the processing

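BBC3, BMF, BCL2L11 and BCL2L1 passed the threshold in Soft under all 16 alternatives, at log2 fold changes of 0.88 to 1.04, 5.50 to 5.66, 3.41 to 3.63 and -0.79 to -0.67, and PMAIP1 under 11 of 16. Members past the threshold in Soft numbered 5, 9 when only the groups compared were fitted and 4 to 9 when 1 library was left out (9 without hairpin #3). Pathway genes numbered 13 in Soft, 24 with DESeq2, 35 with only the groups compared, 28 at a threshold of 0.05 and 8 to 29 when 1 library was left out (8 without Soft replicate 2 or 3, 20 to 29 without a hairpin). In sh_PIP4K2B they numbered 5, 8 with DESeq2, 9 at 0.05, 0 with only the groups compared (9 at an unadjusted p below 0.05 in edgeR) and 0 to 9 when 1 library was left out (0 without Control replicate 1 or 2, with 10 and 11 at an unadjusted p below 0.05). Over all genes in sh_PIP4K2B, 763 passed, 2066 with DESeq2, 5 with only the groups compared, 2375 at 0.05 and 66 to 2013 when 1 library was left out, lowest without Control replicate 2 and highest without hairpin #2. Over all genes in Soft, 4217 passed, 9601 with only the groups compared, 6498 at 0.05 and 2506 to 6373 when 1 library was left out, lowest without Control replicate 3 and highest without hairpin #1. The main fit shares its estimate of the spread over all 9 libraries. The median SD of log2 CPM over all genes tested was 0.36 among the hairpins, 0.08 in Control and 0.07 in Soft. What this unequal spread contributes to these shifts was not tested. Scaling by library size only moved the median of all genes in Soft from 0.01 to 0.12 on the log2 scale, and MCL1, at 0.03, stayed below that median.

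Same-numbered libraries did not deviate together (r of -0.12 to 0.04 over genes). With so few libraries per group this cannot exclude that the numbers pair the samples. The sample titles number the vector alike in Control and Soft, and in sh_PIP4K2B the number is that of the hairpin. With the replicate block, 2 pathway genes and 295 genes in all passed in sh_PIP4K2B, and in Soft 5 members, 12 pathway genes and 3536 genes in all did.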
